A study of Mus musculus with 6 samples.

Results

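The 10 genes described here encode enzymes that make bile acids from cholesterol in the hepatocyte, the enzymes that join them to an amino acid, and the main sodium-dependent bile acid uptake carrier. They were chosen by name, and all 10 were found among the 21115 probe sets of the array. Primary hepatocytes of C57BL/6 mice were plated on collagen with serum and dexamethasone, and the last medium described held neither. Cells of 3 mice gave 3 control cultures and 3 cultures that received recombinant BMP2 at 50 ng/ml over 24 hours, numbered 1 to 3 in each group. The labels name no genetic change, age, sex or control vehicle. Each sample was a whole culture, so fewer cells of a type and less RNA per cell cannot be told apart.

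Bile acid synthesis has a classical route, opened by Cyp7a1, and an alternative route, opened by Cyp27a1 and continued by Cyp7b1. Both routes share the enzymes that rearrange the sterol rings, shorten the side chain in peroxisomes and conjugate the product before it is secreted into bile. In the liver, bile acids returning from the gut are taken up by Slc10a1 and repress their own synthesis through the nuclear receptor FXR and, by way of the gut hormone FGF15, through Fgfr4. BMP2 is a ligand made by cells of the liver vessels that acts on hepatocytes through SMAD transcription factors.

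In these cultures 6 of the 10 genes lay near the lower limit of the array in both groups, among them Cyp7a1, Cyp8b1, Akr1d1 and Slc10a1. The alternative route genes Cyp27a1 and Cyp7b1, the ring enzyme Hsd3b7 and the side-chain enzyme Amacr lay above it. Only Amacr passed the test against control, and it was 1.28-fold lower with BMP2 (limma adjusted p = 0.039, where 1.19% of all probe sets passed). With the replicate number as a block its adjusted p was 0.066 and 0 of the 10 genes passed, and Amacr passed in 0 of 6 fits with 1 sample left out. The other 9 genes did not pass in either fit.

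Near the floor means here a mean log2 level under 7 in both groups. Of all probe sets 57.3% met this rule, as did 99.4% of 1271 olfactory and vomeronasal receptor genes, which hepatocytes are not known to use. The 95th percentile of those receptor genes was 6.65, and 4 of the 10 genes (Cyp7a1, Cyp8b1, Akr1d1 and Slc10a1) lay below it in both groups. Differences are compressed near the floor, so a small difference there does not show that a gene was unchanged.

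The start regions of Cyp8b1, near the floor, and of Cyp27a1, above it, are shown because these genes are grouped here under the classical and the alternative route. The level of 1 gene does not show the state of a route. Each is the RefSeq sequence of GRCm38.p6 from 250 bases before to 50 bases after a transcription start listed for the gene, 5′ to 3′ on the gene's strand, at chr9:121916256-121916555 on the minus strand for Cyp8b1 and at chr1:74713285-74713584 on the plus strand for Cyp27a1. The start used for Cyp8b1 is the first base of its gene record, while that of Cyp27a1 lies inside its gene record, which begins farther upstream. Capitals mark CAAGGNCA, a form of the site read by the nuclear receptor LRH-1, and the TATA box letters TATAAA, searched on both strands together with GGCGCC, a GC-rich element read by BMP-activated SMADs.
Cyp8b1: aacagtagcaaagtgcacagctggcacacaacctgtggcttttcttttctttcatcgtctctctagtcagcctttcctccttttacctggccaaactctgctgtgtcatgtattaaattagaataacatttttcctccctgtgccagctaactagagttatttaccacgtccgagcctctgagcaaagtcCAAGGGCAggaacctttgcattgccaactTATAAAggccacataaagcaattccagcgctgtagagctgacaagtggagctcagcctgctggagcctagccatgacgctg
Cyp27a1: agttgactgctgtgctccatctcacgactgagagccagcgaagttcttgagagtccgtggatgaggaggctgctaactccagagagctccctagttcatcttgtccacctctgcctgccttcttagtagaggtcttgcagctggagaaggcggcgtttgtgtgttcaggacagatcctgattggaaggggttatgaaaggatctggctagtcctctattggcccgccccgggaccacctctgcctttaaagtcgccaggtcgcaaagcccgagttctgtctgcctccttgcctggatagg
The Cyp8b1 window held 1 LRH-1-type site beginning 60 bases before that start and 1 TATA box beginning 31 bases before it, and these matches do not overlap. The Cyp27a1 window held none of the 3 motifs. Windows were found for 5 of the 10 genes, 6 in all, with more than 1 for Slc10a1. Among these genes the LRH-1-type site was in 1 (Cyp8b1), the TATA box in 2 (Cyp8b1 and Slc10a1) and GGCGCC in 0, against 6.71%, 13.6% and 11.9% of 32851 windows of the same length. These are matches of letters and do not show that a factor binds there.

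**Figure D1:**
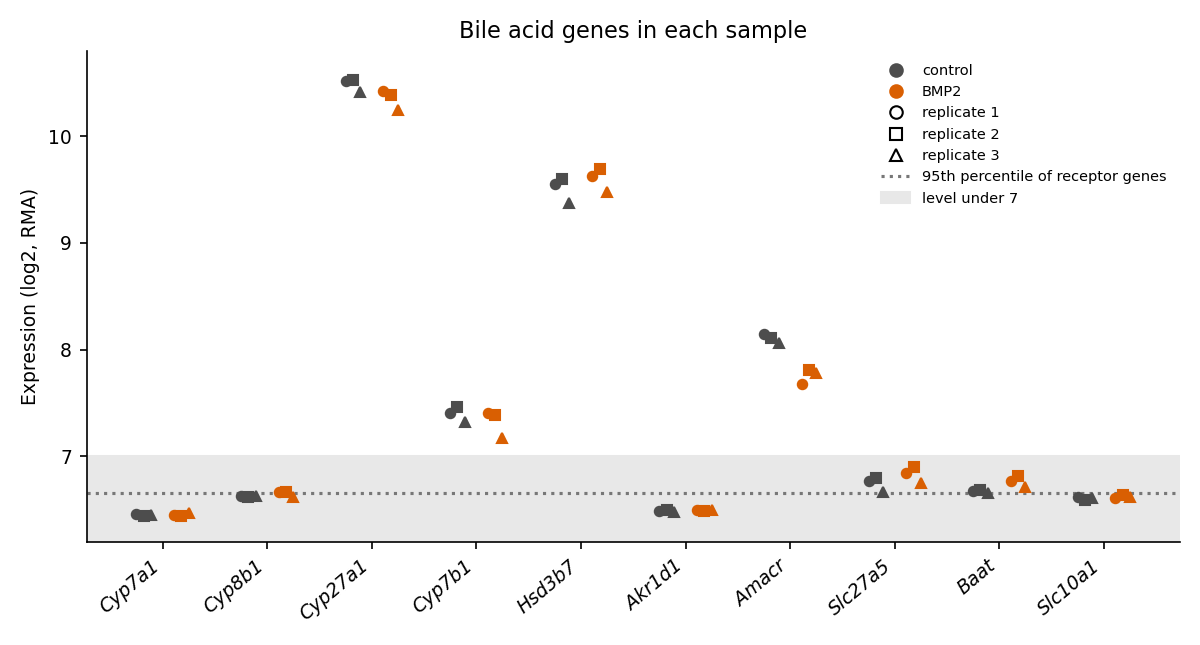
Deposited log2 level (RMA, vertical axis) of each of the 10 genes in the 3 control and 3 BMP2 samples, with replicate numbers as symbols, the band under 7 in grey and the 95th percentile of the receptor genes (6.65) as a dotted line. The symbols of 6 genes lie in the band in every sample, and Cyp27a1, Cyp7b1, Hsd3b7 and Amacr lie above it in every sample.

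Cyp7a1, the rate-limiting enzyme of the classical route, stood at 6.46, 6.44 and 6.45 in control replicates 1 to 3 and at 6.45, 6.44 and 6.47 in the BMP2 samples (log2 level). The groups overlapped, and every value lay below the receptor genes' percentile of 6.65. The difference was 0.0072 on the log2 scale with a 95% interval from -0.02 to 0.03 (limma adjusted p = 0.93). Cyp8b1, which adds the hydroxyl group that separates cholic acid from the other primary bile acids, stood at 6.63, 6.62 and 6.62 in control and at 6.66, 6.66 and 6.62 with BMP2. Its groups overlapped too, through BMP2 replicate 3, and the difference was 0.02 (interval -0.02 to 0.06, adjusted p = 0.72). Both genes of the classical route thus stayed near the floor in all 6 samples.

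Cyp27a1, the mitochondrial enzyme that opens the alternative route, stood at 10.52, 10.53 and 10.41 in control and at 10.42, 10.38 and 10.24 with BMP2. Each BMP2 sample lay below the control of its own number, by 0.10, 0.14 and 0.17, while BMP2 replicate 1 lay just above control replicate 3, so the groups overlapped. The difference was -0.14 ± 0.06 (SE) with an interval from -0.28 to 0.01, and did not pass (limma adjusted p = 0.44). With the replicate number as a block the interval narrowed to -0.19 to -0.08 (adjusted p = 0.069), and the adjusted p was 0.042 with the block over brighter probe sets alone, where 14.3% of 8879 probe sets passed. Cyp7b1, which hydroxylates oxysterols in this route, stood at 7.40, 7.46 and 7.32 in control and at 7.40, 7.39 and 7.17 with BMP2. The lowest value was that of BMP2 replicate 3 and the groups overlapped. The difference was -0.07 (interval -0.26 to 0.12, adjusted p = 0.86), and it was 0.0018 without BMP2 replicate 3.

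Hsd3b7, which oxidises the sterol ring after its first hydroxylation, stood at 9.55, 9.60 and 9.38 in control and at 9.63, 9.69 and 9.48 with BMP2. All 3 pairs differed upwards, by 0.07, 0.09 and 0.10, but the low values of replicate 3 in both groups made the groups overlap. The difference of 0.09 did not pass (interval -0.12 to 0.30, limma adjusted p = 0.82), nor with the replicate block (interval 0.06 to 0.12, adjusted p = 0.052). Akr1d1, the reductase that acts after Hsd3b7, lay between 6.48 and 6.50 in all 6 samples. Its difference was 0.0046 (interval -0.02 to 0.03, adjusted p = 0.95), and its whole range over the samples was 0.02.

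Amacr, the racemase that readies the side chain for peroxisomal shortening, stood at 8.14, 8.11 and 8.06 in control replicates 1 to 3 and at 7.67, 7.81 and 7.78 in the BMP2 samples. All BMP2 values lay below all control values, and the lowest was that of BMP2 replicate 1. Amacr fell by 0.35 on the log2 scale (SE 0.04, interval -0.46 to -0.25), or to between 0.728 and 0.843 times the control level, with a limma adjusted p of 0.039. It was the 1 gene called of the 10, with 0 called higher. Of all probe sets 1.19% were called, 0.616% higher and 0.573% lower. With the replicate block the interval widened to -0.49 to -0.21 (limma adjusted p = 0.066). With any 1 sample left out the adjusted p lay between 0.073 and 0.163, so the block and each of these fits ended the call. In the fits without 1 sample its difference lay between -0.38 and -0.31, and the 3 pairs differed by -0.47, -0.30 and -0.29.

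Among named genes with a mean level of at least 7, the profile over the 6 samples most like that of Amacr belonged to Rgs19, a regulator of G-protein signalling, to Ehd4, a protein of endocytic recycling, and to Lrig1, a membrane protein that dampens growth factor receptors. After each gene's own mean was subtracted, they differed from Amacr by 0.032, 0.033 and 0.038 (root-mean-square log2 difference, 8261 candidates). Rgs19 and Ehd4 passed the test against control (limma adjusted p = 0.039 and 0.024) and Lrig1 did not (adjusted p = 0.055), and with the block Ehd4 passed (0.025) and Rgs19 did not (0.052). The 3 genes differed by -0.34, -0.39 and -0.38. They were chosen for likeness to Amacr over the same 6 samples, so differences near that of Amacr follow from the choice. Their test results are therefore no separate support for the fall of Amacr.

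Slc27a5, the ligase that activates bile acids with coenzyme A, stood at 6.77, 6.80 and 6.66 in control and at 6.84, 6.89 and 6.75 with BMP2. Baat, which then joins them to taurine or glycine, stood at 6.67, 6.68 and 6.65 in control and at 6.77, 6.82 and 6.71 with BMP2. The Baat groups did not overlap and the Slc27a5 groups did, and both genes were higher in all 3 pairs, Slc27a5 by 0.07, 0.10 and 0.08 and Baat by 0.10, 0.14 and 0.06. Their mean levels lay under 7, and above the receptor genes' percentile in every sample except control replicate 3 of Baat. Neither passed, with differences of 0.08 for Slc27a5 (interval -0.05 to 0.22, limma adjusted p = 0.69) and 0.10 for Baat (interval 0.02 to 0.17, adjusted p = 0.25). With the replicate block the adjusted p was 0.055 for Slc27a5 and 0.12 for Baat. With the block and an intensity trend in the variance both passed (0.017 for Slc27a5 and 0.020 for Baat), in a fit that called 6.05% of all probe sets.

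Slc10a1, the sodium-taurocholate cotransporter NTCP that takes bile acids up from blood, stood at 6.62, 6.59 and 6.61 in control and at 6.61, 6.63 and 6.62 with BMP2. The groups overlapped within a range of 0.04, and the difference was 0.02 (interval -0.01 to 0.04, limma adjusted p = 0.67). Of the 6 genes near the floor, Slc27a5 came nearest to the bound of 7 from below, with a BMP2 mean of 6.83, and Cyp7b1 was the nearest above it, with a BMP2 mean of 7.32.

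**Figure D2:**
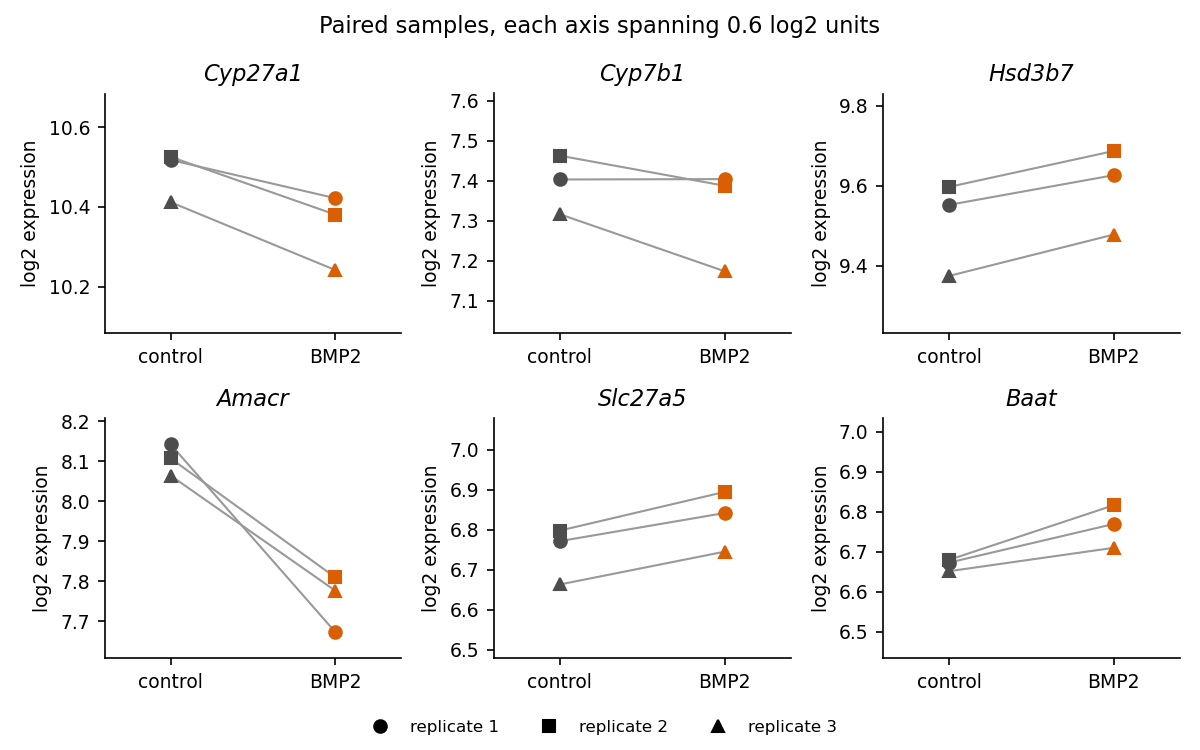
Log2 level (vertical axis, the same span in each panel) of the 4 genes above the floor and of Slc27a5 and Baat in control and BMP2 samples, with lines joining samples of the same replicate number. Amacr lies lower with BMP2 in all 3 pairs, as does Cyp27a1 by less, and replicate 3 (triangles) is lowest within each group for Cyp27a1, Cyp7b1, Hsd3b7, Slc27a5 and Baat.

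Over the 10 genes the median difference was 0.01, against 0.00065 over all probe sets. Groups did not overlap for 2 of the 10 (Amacr below and Baat above), where 16.7% of all probe sets had groups that did not overlap (8.42% with BMP2 above and 8.25% with BMP2 below). In 5 of 10 genes the 3 pairs had the same sign, 3 upwards (Hsd3b7, Slc27a5, Baat) and 2 downwards (Cyp27a1, Amacr), against 36.8% of all probe sets. With the replicate block 0 of 10 passed in limma, where 3.32% of all probe sets did (1.68% higher and 1.64% lower), and 5 of 10 (the same 5) had an unadjusted p under 0.05, against 18% of all probe sets.

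**Figure D3:**
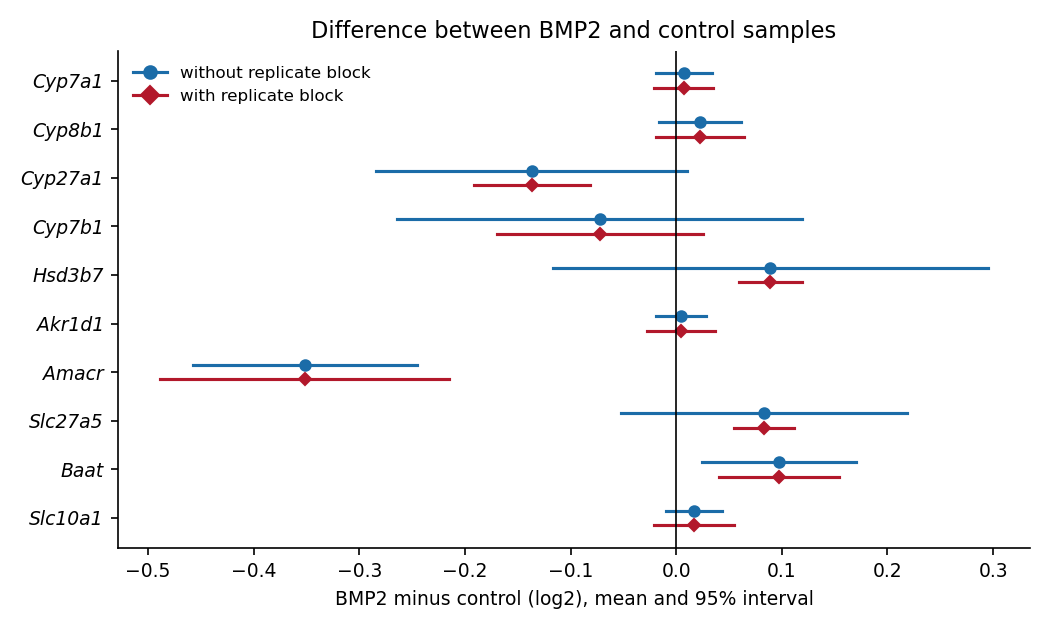
Difference between BMP2 and control (log2, horizontal axis) of each gene with its 95% interval, without (circles) and with (diamonds) the replicate number as a block. Amacr, at -0.35, lies farthest from 0, and the intervals of Cyp27a1, Hsd3b7 and Slc27a5 exclude 0 only with the block.

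Samples of replicate 3 were low in several of these genes. The mean of replicate 3 over both groups was the lowest of the 3 in 8 of the 10 genes, against 30.6% of all probe sets. The same held for 3 of the 4 above the floor. Near the floor the gap could be very small, with means of replicates 1 to 3 of 6.614, 6.613 and 6.611 for Slc10a1. For Akr1d1 they were 6.493, 6.492 and 6.487. For Hsd3b7 the means of replicates 1 to 3 were 9.59, 9.64 and 9.43, for Cyp27a1 10.47, 10.45 and 10.33, and for Slc27a5 6.81, 6.85 and 6.70. The limma F test of the replicate number, with 2 samples per number, called 0 of the 10 genes after adjustment, where it called 0.0284% of all probe sets. Its unadjusted p was under 0.05 for 4 genes (Hsd3b7, Slc27a5, Cyp27a1 and Cyp7b1), against 14.8% of all probe sets, and the adjusted p was 0.10 for Hsd3b7 and 0.12 for Slc27a5. Amacr did not follow this pattern in its replicate means of 7.91, 7.96 and 7.92 (adjusted p = 0.88). Of 13 measured hepatocyte markers 11 were also lowest in replicate 3, and the part of hepatocyte content in these values was not tested.

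Of 17 other synthesis and conjugation enzymes 1 rose, 0 fell and 16 did not pass in limma. Near the floor lay 6 of the 17, and the median difference was 0.09. This list was chosen with earlier results of these data known, and over all probe sets 0.616% were called higher and 0.573% lower. Akr1c14, a hydroxysteroid dehydrogenase, rose from 9.20 ± 0.22 to 11.29 ± 0.14 (SD, n = 3, limma adjusted p = 0.0082) and passed in 4 of 6 fits with 1 sample left out. Cyp2c70, which makes the muricholic acids of mice, stood at 12.34 ± 0.16 in control and 12.77 ± 0.09 with BMP2 (SD, n = 3), a difference of 0.43 with a limma adjusted p of 0.13 that passed with the block (0.042). Hsd17b4, the peroxisomal enzyme that acts on the side chain after Amacr, differed by 0.15 (limma adjusted p = 0.34; 0.060 with the block), in the direction opposite to Amacr.

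Of 15 measured transporters of bile acids and bile lipids 1 rose, 0 fell and 14 did not pass, where 1.19% of all probe sets passed. Near the floor lay 9, and the median difference was 0.01. This list too was chosen with earlier results known. Abcb4, which carries phospholipid into bile, rose from 8.34 ± 0.35 to 10.25 ± 0.32 (SD, n = 3, limma adjusted p = 0.044; 0.010 with the block), and passed in 0 of 6 fits with 1 sample left out (adjusted p 0.055 to 0.159). Abcc3, an export pump of the blood side, stood at 10.91 ± 0.22 in control and 11.81 ± 0.09 with BMP2 (SD, n = 3), and its adjusted p was 0.051. Atp8b1, a phospholipid flippase of the canalicular membrane, differed by 0.11 (adjusted p = 0.18). Abcb11, the bile salt export pump, was among the genes near the floor, at 6.57 in control and 6.58 with BMP2, as Slc10a1 was. It was picked out after its values were seen.

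Of 21 measured regulators of bile acid synthesis 3 rose, 0 fell and 18 did not pass, where 1.19% of all probe sets passed. Near the floor lay 7, and the median difference was 0.05. The regulators were chosen with earlier results of these data known, so the count is not a separate result about the pathway. Fgfr4, the receptor for FGF15, rose from 7.36 ± 0.02 to 8.50 ± 0.08 (SD, n = 3, limma adjusted p = 0.0027) and stayed past the threshold in 6 of 6 fits with 1 sample left out. Hnf4a, a nuclear receptor that drives Cyp7a1 and Cyp8b1, rose from 11.68 ± 0.07 to 12.50 ± 0.08 (SD, n = 3, adjusted p = 0.0097), and Prox1, a corepressor of bile acid synthesis, from 8.78 ± 0.15 to 9.50 ± 0.07 (SD, n = 3, adjusted p = 0.039). With 1 sample left out Hnf4a passed in 4 and Prox1 in 1 of 6 fits. Nr1d1, a clock repressor, differed by 0.68 (adjusted p = 0.45 without the block and 0.029 with it). Klb, the co-receptor that Fgfr4 needs for FGF15, lay near the floor at 6.61 in control and 6.60 with BMP2, as did Nr0b2, the FXR target SHP, at 6.59 in control and 6.58 with BMP2. Klb and Nr0b2 were picked out after their values were seen.

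**Figure D4:**
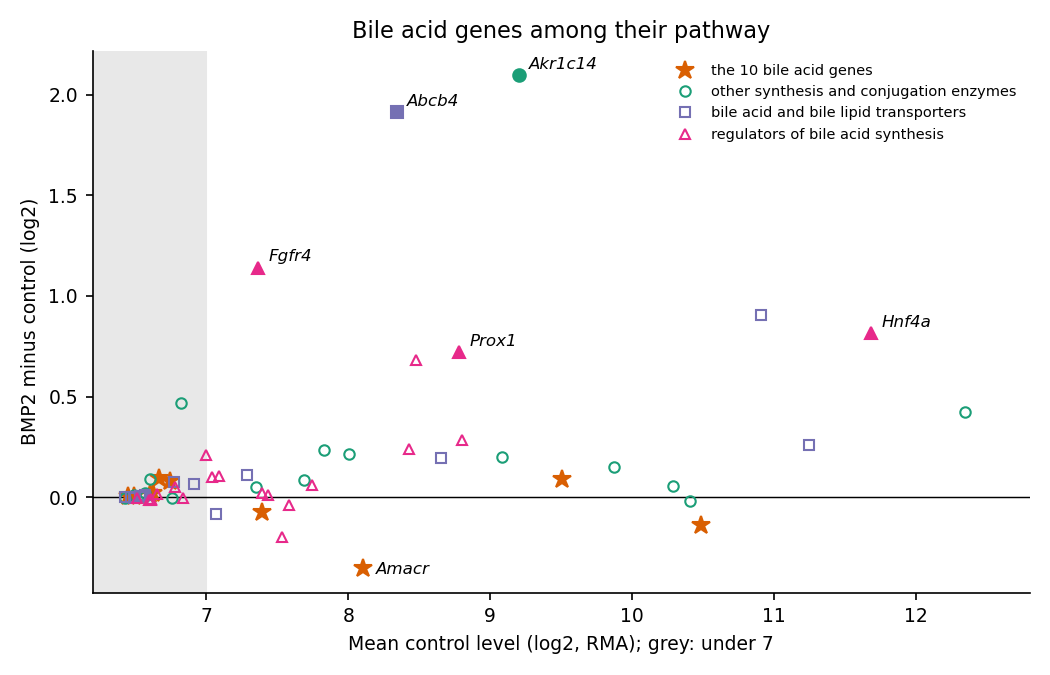
Difference between BMP2 and control (log2, vertical axis) against the mean control level (log2, horizontal axis) of the 10 genes (stars) and of 53 other genes of the pathway, with filled symbols for those 53 that passed the limma threshold and levels under 7 in grey. The 5 filled symbols (Akr1c14, Abcb4, Fgfr4, Hnf4a and Prox1) lie above 0, and Amacr is the lowest point.

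The known BMP targets Hamp and Id1 rose (limma adjusted p = 0.0027 and 0.00094). Hamp stood at 7.86 in control and 13.48 with BMP2 and Id1 at 7.39 and 11.68. Of 13 hepatocyte markers 11 lay above the floor, while Cps1 and Pck1 lay near it, and their summed linear level was 49359.5 to 53983 in control and 54417 to 60415 with BMP2. None of the 13 passed in limma without the block, and with it Ttr (0.68, adjusted p = 0.017) and Fga (0.29, adjusted p = 0.017) were higher. In all BMP2 samples 6 of the 13 lay higher than in all controls (Ttr, Apoa1, Apob, Fga, Ahsg and Ass1), and 0 lay lower. Over the 13 the median difference was 0.14, against 0.00065 over all probe sets, with 11 above 0 and 2 below. Of the markers of other cells, 4 of 6 cholangiocyte, 9 of 10 macrophage and leukocyte, 9 of 10 endothelial and 8 of 10 stellate and fibroblast genes lay near the floor, Epcam, Adgre1, Stab2 and Lrat among them. Above it lay Krt19, Sox9, Cd68, Cdh5, Acta2 and Col1a1. The summed levels in control and with BMP2 were 1644 to 1918 and 1978 to 2098 for cholangiocytes, 1046 to 1150 and 1025 to 1058 for macrophages and leukocytes, 1059 to 1092 and 1066 to 1119 for endothelium, and 1251 to 1361 and 1171 to 1238 for stellate cells and fibroblasts. These sums include the genes near the floor, so they do not measure the amount of a cell type. The highest cholangiocyte gene was Sox9, at 9.94 in control and 10.40 with BMP2, while Krt19 stood at 8.77 and 8.25. Of these 36 markers 0 passed without the block in limma, and Sox9 (0.46, adjusted p = 0.039) passed with it. Krt19 (-0.51, adjusted p = 0.073), Acta2 (-0.49, adjusted p = 0.20) and Col1a1 (-0.07, adjusted p = 0.51) lay lower in all BMP2 samples than in all controls. Sox9 and, near the floor, Lyve1 (0.03, adjusted p = 0.50) lay higher in all BMP2 samples than in all controls. In this way 8.25% of all probe sets lay below and 8.42% above. Cd68, at 7.75 in control and 7.41 with BMP2, differed by -0.59, -0.24 and -0.20 in the 3 pairs (adjusted p = 0.56), and Cdh5 stood at 7.10 in control and 7.21 with BMP2 (adjusted p = 0.83). The part of these markers in the fall of Amacr was not tested.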

How the data were processed

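The authors deposited log2 values from an Affymetrix array, 1 per gene and sample, which came from RMA (robust multi-array averaging), as the submitters' processing notes record. Its version, its filters and the genome build are not given in the sources used here. Probe sets are numbered by gene, and 20405 of 21115 were named through the platform annotation. The values, from 6.35 to 14.0 with sample medians of 6.80 to 6.81, were not normalized again. Arrays give no counts, so the precision rests on 3 samples per group. The limma fit also draws the variance of each gene toward that of all probe sets.

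The test of BMP2 against control was that of limma 3.58.1 (R 4.3.3, functions lmFit and eBayes, two-sided) over all probe sets, with Benjamini-Hochberg adjustment and a threshold of 0.05. Intervals are 95% intervals of the moderated fit, and every adjusted p comes from limma. Samples of the same number deviated together (correlations of 0.48, 0.58 and 0.61), and the design text names 3 mice, so equal numbers were taken as pairs. Between unequal numbers the correlations ran from -0.55 to 0.18. Deviations were taken from each group's mean, which pushes the correlations of unequal numbers down. The sample titles tie no number to a mouse. The fit with the replicate number as a block stands beside the main one, and its F test compares the replicate numbers.

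The members and lists were chosen with earlier results of these data known. Named were all 10 members, the called and the 3 lowest-p genes of each list as far as described, Hamp and Id1 as a check of the treatment, and the 3 profiles nearest to each member called. Of the marker lists not every such gene is described. The alternatives were the fixed and random block, a filter on dim probe sets, an intensity trend, renewed normalization, array weights and leaving out samples. The scripts were tested on simulated data. The sequences are from RefSeq (GRCm38.p6).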

Additional observations from a re-analysis of the deposited data

How the results depend on the processing

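The blocks, the filter and the trend do not alter a difference, so its direction could not turn there. In the test as reported 9 of the 10 genes were not called, so most could only stay uncalled or become called. Of 168 differences of the 10 genes recomputed over 18 settings, 151 kept their direction and their side of the threshold. Signs turned in 4, each within 0.002 of 0: Cyp7a1 (-0.00065) and Cyp7b1 (0.0018) without BMP2 replicate 3, and Akr1d1 without control replicate 3 (-0.00033) and without both samples of replicate 3 (-0.0015). Over the fits without 1 sample or number their differences ran from -0.00065 to 0.013, from -0.11 to 0.0018 and from -0.0015 to 0.015. The count of the 10 genes past the threshold, 1 in the test as reported, was 0 with the replicate block. It stayed 1 (Amacr) with the random block, the filter, the trend, renewed quantile normalization, median centring or array weights. In these fits the limma adjusted p of Amacr lay between 0.011 and 0.043, and 1.06% to 4.99% of probe sets passed. The count was 3 with an intensity trend and the block (Amacr lower, Slc27a5 and Baat higher). It was 2 with the block and probe sets of a mean of at least 7 alone (Amacr and Cyp27a1 lower), a combination added after the data were seen. It was 0 in each fit without 1 sample or without both samples of 1 number. For the other enzymes the count, 1 as reported, was 2 with the fixed block, the random block, the filter or the trend, 6 with the trend and block, 7 with the filter and block, and 0 to 1 without 1 sample or 1 number. For the transporters it was 1 as reported, 2 with the random block, the filter, the trend or array weights, 3 with the trend and block, 4 with the filter and block, and 0 without any 1 sample or number. For the regulators it was 3 as reported, 7 with the trend and block, 7 with the filter and block, and 0 to 3 without 1 sample or number. Over all probe sets 251 passed as reported, 702 with the replicate block, 30 to 223 without 1 sample and 2 to 114 without 1 number. The F test of the replicate number called 0 members as reported and 1 (Slc27a5, adjusted p = 0.032) with the block and an intensity trend. The causes of these moves were not tested. The receptor genes' percentile in place of 7 left 4 genes near the floor in place of 6. Levels near the floor limit what can be said of these 6 genes.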
